A study of Mus musculus with 10 samples.

Results

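The genes followed here mark how the small intestine of a mouse handles milk and how it later turns to solid food. They were the disaccharidases Lct, Sis, Treh and Mgam, the transcription factor gene Prdm1 and the receptor gene Fcgrt. The 6 genes were chosen by their symbols, all 6 were found among the 24062 symbols of the count files, and all 6 passed the filter on low counts. Jejunum was sampled from C57BL/6 mice at postnatal day 5, an age at which mice suckle, in 2 groups of 5 libraries. Wild type (WT) mice served as controls. KSR23 mice (genotype KSR23+) carried a cassette for both subunits of interleukin-23 (IL-23) in the ROSA26 locus behind a floxed stop, which was opened by cre from the keratin 14 promoter (a promoter active in keratinocytes). Whether the WT pups carried the cassette or the cre alone is not given in the sources used here. The study asked whether IL-23 alters organs on which growth of a newborn depends. The comparison here asks which of the 6 genes differed between KSR23 and WT jejunum.

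In suckling rodents the enterocytes of the jejunum digest lactose with lactase and take up proteins of milk, among them maternal antibodies bound by the neonatal Fc receptor. At weaning lactase and the receptor decline, while sucrase-isomaltase and trehalase rise and the gut becomes able to use sucrose and starch. The repressor BLIMP1, encoded by Prdm1, is known to be present in the suckling epithelium and to hold back enterocyte genes of the adult type. It is also made by plasma cells and some T cells.

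Library totals were 25.5 to 32.0 M counts in WT and 31.2 to 60.9 M in KSR23 (M stands for 1000000). Levels are given as counts per M (CPM) of a library total scaled by trimmed mean of M-values. Because 3 counts corresponded to 0.0492 to 0.118 CPM, each of the 6 genes lay well above the counting floor in every library. Il12b, which encodes the p40 subunit of IL-23, had 0 to 5 counts in WT and 9 to 40 in KSR23 libraries (adjusted p = 0.00364), and Il23a, for the p19 subunit, was not called (adjusted p = 0.27). Replicates 4 and 5 of both groups lay inside the range of the other libraries at most genes. Among 7166 genes they were the highest or lowest of their group at 8.02% to 18.4%, whereas replicates 1 to 3 were so at 45.2% to 77.4%. Whether they are independent of replicates 1 to 3 was not tested. If they are not, the SDs and p-values over 5 libraries overstate the precision, so the fold changes of the 6 genes are also given from replicates 1 to 3 alone. The epithelial marker Vil1, an actin-binding protein of the brush border, was at 448 ± 77.6 CPM in WT and 718 ± 257 CPM in KSR23 (SD, n = 5 each). Some other epithelial markers varied far more within a group. Cldn3 ran from 4.02 to 248 CPM in WT and from 5.92 to 244 CPM in KSR23. Alpi ran from 118 to 3073 CPM in WT and from 97.8 to 3386 CPM in KSR23. Both were lowest in WT replicate 1 and in KSR23 replicate 3 of their groups, and the cause was not tested.

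Of the 6 genes, 3 were higher in KSR23 (Mgam, Sis and Prdm1), 2 were lower (Fcgrt and Lct) and Treh did not pass the test. Across all 17632 genes tested, the likelihood ratio test of edgeR called 18.5% at an adjusted p under 0.05, 9.74% higher and 8.76% lower in KSR23. The groups did not overlap in CPM for 3 of the 6 genes (Mgam, Prdm1 and Fcgrt), where 14.4% of all genes tested had no overlap (7.41% with KSR23 higher, 6.99% lower). The quasi-likelihood F test of edgeR called 4 of the 6 genes (15.4% of all genes, 8.47% higher and 6.91% lower) and did not call Lct. In replicates 1 to 3 alone all 6 genes kept their direction, but only Mgam was called by the likelihood ratio test, which called 3.36% of all genes there (2.01% higher, 1.35% lower). The quasi-likelihood test called none of them there, with 0.812% of all genes called (0.574% higher, 0.238% lower).

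**Figure D1:**
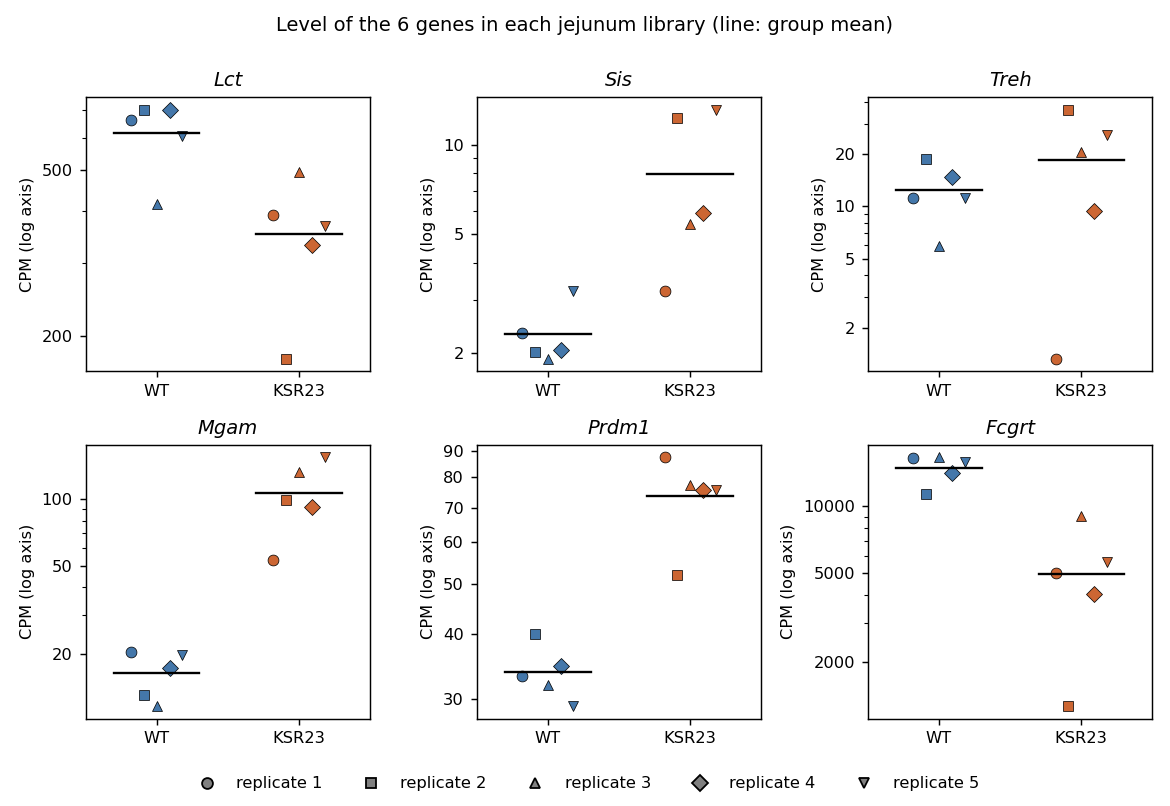
Level of each gene in CPM (log axis) in the 5 WT and 5 KSR23 jejunum libraries; symbols mark replicate numbers and lines the group means. Mgam and Prdm1 lie higher in all 5 KSR23 libraries than in any WT library and Fcgrt lower, while Lct, Sis and Treh overlap.

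The 6 genes were expressed at very different levels. Compared per kb of exon, Fcgrt was the most abundant of the 6 in WT jejunum (7086 ± 1050 CPM per kb, SD, n = 5) and ranked at place 7 among 16744 tested genes with a known length. Lct followed with 96.1 ± 18.5 CPM per kb, at place 600. Next in WT came Treh (6.06 ± 2.34 CPM per kb) and Prdm1 (6.05 ± 0.727 CPM per kb), which overlapped and did not differ beyond their spread. Mgam (1.90 ± 0.455 CPM per kb) and Sis (0.309 ± 0.0723 CPM per kb) were lowest, at places 7570 and 12079. In KSR23 the order of the extremes was the same. Fcgrt led with 2373 ± 1339 CPM per kb, followed by Lct with 54.9 ± 18.0 CPM per kb, and Sis was last with 1.07 ± 0.594 CPM per kb. Between them Prdm1 (13.2 ± 2.35 CPM per kb), Mgam (12.2 ± 4.46 CPM per kb) and Treh (9.11 ± 6.68 CPM per kb) overlapped (SD, n = 5 each). Mgam stood at place 3137 here.

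The starts of the 3 disaccharidase genes that passed the test are shown because GATA and CDX factors are known to act on the promoters of Lct and Sis, and because the windows differ in the letters they hold. Each window runs 5′ to 3′ on the strand of the gene, from 250 bases before to 50 bases after the start site (RefSeq, build GRCm38.p6, the assembly also called mm10). All 6 genes were matched by symbol. Capitals mark every match, on either strand, to the letters searched.
Lct, chr1:128328269-128328568, minus strand: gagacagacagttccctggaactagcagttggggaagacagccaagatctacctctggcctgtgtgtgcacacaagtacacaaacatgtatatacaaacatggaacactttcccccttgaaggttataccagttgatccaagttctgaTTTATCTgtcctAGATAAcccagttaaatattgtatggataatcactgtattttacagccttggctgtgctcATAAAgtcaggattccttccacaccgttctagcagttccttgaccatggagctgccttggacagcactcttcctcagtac
Mgam, chr6:40628581-40628880, plus strand: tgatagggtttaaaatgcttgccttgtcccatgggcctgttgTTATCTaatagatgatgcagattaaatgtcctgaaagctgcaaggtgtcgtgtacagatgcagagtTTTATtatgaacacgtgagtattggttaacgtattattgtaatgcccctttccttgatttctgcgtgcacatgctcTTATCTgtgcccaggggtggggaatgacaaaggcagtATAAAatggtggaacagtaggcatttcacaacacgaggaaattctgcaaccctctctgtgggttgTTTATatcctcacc
Sis, chr3:72967814-72968113, minus strand: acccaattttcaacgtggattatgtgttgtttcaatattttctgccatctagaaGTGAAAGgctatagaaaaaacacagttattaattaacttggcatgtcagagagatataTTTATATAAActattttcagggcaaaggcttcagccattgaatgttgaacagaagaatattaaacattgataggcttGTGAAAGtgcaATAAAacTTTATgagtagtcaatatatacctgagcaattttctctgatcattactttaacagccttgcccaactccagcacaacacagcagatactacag

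Both strands were searched, and shares are of 27025 promoter windows of the same length. The letters AGATAA, known for factors of the GATA family, were found in 11.4% of them. TTTAT, known for CDX factors, was found in 40.9%. TTCNNNGAA, known for STAT factors, was found in 8.47% and GTGAAAG, known for BLIMP1, in 4.31%. The palindrome of the glucocorticoid receptor was found in 0.463%. Lct held the GATA letters at positions -101 and -90 from the start site, the first of which shares 4 bases with a TTTAT at -102, and TTTAT again at -30. Mgam held the GATA letters at -208 and -66 and TTTAT at -142, -29 and 37. Sis held the BLIMP1 letters at -196 and -61 and TTTAT at -138, -133, -50 and -43. None of the 3 windows held the STAT or glucocorticoid receptor letters, and the windows of Treh, Prdm1 and Fcgrt held none of the 5 sets. The window of Prdm1 lies at a start inside the gene, not at its outermost one. Such matches describe the sequence and do not show binding.

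Lct (chromosome 1, 128284756 to 128328318, build mm10) encodes lactase-phlorizin hydrolase, the brush border enzyme that splits the lactose of milk into glucose and galactose. Its level was 661, 697, 415, 700 and 605 CPM in WT replicates 1 to 5. In KSR23 replicates 1 to 5 it was 390, 176, 495, 331 and 367 CPM. The groups overlapped, since WT replicate 3 lay below KSR23 replicate 3, and KSR23 replicate 2 was the lowest of all. The mean fell from 616 ± 119 to 352 ± 116 CPM (SD, n = 5), or 1.75-fold. As a log2 ratio of KSR23 over WT (the log2 fold change of the plots) this was -0.81 (SE 0.30) with an adjusted p of 0.0442 in the likelihood ratio test. The call was not kept by the quasi-likelihood test (adjusted p = 0.0627), in replicates 1 to 3 alone (log2 ratio -0.71, adjusted p = 0.657), with scaling to the epithelial markers (-1.16, adjusted p = 0.173) or in 8 of the 10 fits that left out 1 library (adjusted p up to 0.152). Of these 10 fits it was kept without WT replicate 3 and without KSR23 replicate 3. It was also kept with DESeq2, with other size factors, with library totals alone and with a stricter or no filter (adjusted p 0.0219 to 0.0492).

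Mgam (chromosome 6, 40628831 to 40769123) encodes maltase-glucoamylase, which releases glucose from the ends of starch fragments. Its level was 20.5, 13.1, 11.7, 17.4 and 19.8 CPM in WT replicates 1 to 5, and 53.3, 99.5, 132, 92.0 and 154 CPM in KSR23 replicates 1 to 5. Every KSR23 library lay above every WT library, and KSR23 replicate 1 was the lowest of its group. Mgam was 6.44-fold higher in KSR23 (16.5 ± 3.96 against 106 ± 38.8 CPM, SD, n = 5). The log2 ratio was 2.69 (SE 0.33, adjusted p = 2.5e-12, 0.000158 in the quasi-likelihood test). Replicates 1 to 3 alone again gave 2.69 (adjusted p = 0.000722), where the quasi-likelihood test gave an adjusted p of 0.0554 and no call.

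Sis (chromosome 3, 72888557 to 72967863) encodes sucrase-isomaltase, the enzyme for sucrose and for branched starch fragments, and a close relative of Mgam. In WT replicates 1 to 5 Sis had only 75, 57, 52, 71 and 86 counts, or 2.32, 2.02, 1.91, 2.05 and 3.23 CPM. In KSR23 replicates 1 to 5 there were 227, 382, 136, 332 and 464 counts, or 3.23, 12.3, 5.41, 5.88 and 13.1 CPM. KSR23 replicate 1 was level with the highest WT library, replicate 5, and the other 4 KSR23 libraries lay above all WT libraries. Sis was 3.46-fold higher in KSR23 (2.30 ± 0.539 against 7.99 ± 4.43 CPM, SD, n = 5), and its log2 ratio was 1.79 (SE 0.42, adjusted p = 0.000467, 0.00908 in the quasi-likelihood test). With replicates 1 to 3 alone it was 1.78 and was not called (adjusted p = 0.13), and scaled to the epithelial markers it was 1.28 and not called (adjusted p = 0.124). Sis stayed far below Lct in KSR23 as well, with 8.28 to 69.9 Sis counts per 1000 Lct counts.

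Treh (chromosome 9, 44673233 to 44686305) encodes trehalase, the brush border enzyme for the sugar trehalose of fungi and insects. Its level was 11.1, 18.9, 5.94, 14.8 and 11.3 CPM in WT replicates 1 to 5 and 1.32, 36.2, 20.6, 9.40 and 25.7 CPM in KSR23 replicates 1 to 5. The KSR23 libraries spread over 27.4-fold, and replicate 1 lay below and replicates 2, 3 and 5 above the whole WT range. No difference was detected between 12.4 ± 4.80 CPM in WT and 18.7 ± 13.7 CPM in KSR23 (SD, n = 5, log2 ratio 0.59, SE 0.62, 95% interval -0.63 to 1.80, adjusted p = 0.572 by the likelihood ratio test). Replicates 1 to 3 alone gave 0.73 (adjusted p = 0.841). Without KSR23 replicate 1 the log2 ratio was 0.94 (adjusted p = 0.116). That library was also the lowest of the KSR23 group for Ada (10.8 CPM, against 40.0 to 150 in the others), Slc2a5 (31.3 CPM, against 62.2 to 120) and Onecut2 (2.21 CPM, against 16.3 to 39.2), and the highest for Cdx2 (98.6 CPM, against 6.44 to 54.4). Onecut2 was listed as a gene of the proximal small intestine. Of that list of 7 genes 1 was called higher (Cd36) and 2 lower (Cybrd1 and Fabp1). The summed level of the list was 6103 CPM in KSR23 replicate 1, 6103 to 13960 CPM in KSR23 and 9669 to 19060 CPM in WT. Most of this sum was Fabp1 (13910 CPM in WT and 6907 CPM in KSR23, group means), while Slc40a1 (1002 and 1476 CPM) and Cd36 (554 and 1179 CPM) had higher means in KSR23. Of the list of 6 distal genes 2 were called higher (Muc13 and Slc10a2) and 0 lower. The distal list summed to 3731 CPM in KSR23 replicate 1, 2510 to 7649 CPM in KSR23 and 2171 to 2902 CPM in WT. Most of this distal sum was Muc13 (1424 CPM in WT and 3470 CPM in KSR23) and Tff3 (857 and 1011 CPM, not called). Fabp6 and Slc10a2, which define the ileum, were at no more than 1.35 CPM in any library. The call of Slc10a2 (adjusted p = 0.0384, quasi-likelihood adjusted p = 0.0923) rests on 0 to 9 counts in WT and 5 to 42 counts in KSR23 libraries. Fgf15, also on the distal list, was at 1.27 to 7.67 CPM in WT and 0 to 4.35 CPM in KSR23 and was not called. The part of gut region in these values was not tested.

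Prdm1 (chromosome 10, 44437177 to 44528501) encodes BLIMP1, the repressor described above, and was at 33.2, 40.0, 31.9, 34.7 and 29.1 CPM in WT replicates 1 to 5. In KSR23 replicates 1 to 5 it was at 87.5, 52.0, 77.4, 75.7 and 75.8 CPM. The groups did not overlap, and the lowest KSR23 library was replicate 2. Prdm1 was 2.18-fold higher in KSR23 (33.8 ± 4.06 against 73.7 ± 13.1 CPM, SD, n = 5), and its log2 ratio was 1.13 (SE 0.26, adjusted p = 0.000298, 0.00273 in the quasi-likelihood test). Restricted to replicates 1 to 3 it was 1.08 and the call was lost (adjusted p = 0.321). Scaled to the epithelial markers it was 0.75 and not called (adjusted p = 0.318). Prdm1 thus rose where Lct and Fcgrt, which like it are known from the suckling epithelium, fell.

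In bulk tissue, fewer cells of a type and less RNA per cell cannot be told apart, and Prdm1 is also expressed by lymphocytes. Of 7 B and plasma cell markers 1 was called higher and 0 lower, and their sum was 6.57 to 8.79 CPM in WT and 5.13 to 12.3 CPM in KSR23. The plasma cell markers Jchain (0.14 and 0.391 CPM) and Mzb1 (0.701 and 0.557 CPM) were below 1 CPM in the means of WT and KSR23, and Tnfrsf17 (0.0467 and 0.047 CPM) was at the floor. Of 9 markers of T and innate lymphoid cells 0 were called higher and 1 lower (Cd3g), and their sum was 118 to 161 CPM in WT and 81.0 to 160 CPM in KSR23. Each sum overlapped between the groups, and the part of these cells in the Prdm1 result was not tested.

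Fcgrt (chromosome 7, 45092990 to 45103851) encodes the heavy chain of the neonatal Fc receptor, which carries antibodies of milk across the enterocyte. Its level was 16440, 11370, 16670, 14130 and 15860 CPM in WT replicates 1 to 5, and 4993, 1263, 9046, 4024 and 5612 CPM in KSR23 replicates 1 to 5. Every KSR23 library lay below every WT library, with a 7.16-fold spread within KSR23 between replicates 2 and 3. Fcgrt was 2.99-fold lower in KSR23 (14900 ± 2206 against 4988 ± 2814 CPM, SD, n = 5), a log2 ratio of -1.58 (SE 0.40, adjusted p = 0.00183, 0.0234 in the quasi-likelihood test). From replicates 1 to 3 alone it was -1.51 and was not called (adjusted p = 0.287). B2m, the light chain with which the receptor pairs, was at 4243 ± 562 CPM in WT and 3152 ± 1052 CPM in KSR23 (SD, n = 5) and was not called (log2 ratio -0.43, adjusted p = 0.303).

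Macrophages and endothelial cells also express Fcgrt. Of 8 macrophage markers 1 was called higher (Cd163) and 2 lower (C1qb and C1qc), and their sum was lower in KSR23 (618 to 820 CPM) than in WT (868 to 1041 CPM), with no overlap. Of 6 endothelial markers 0 were called higher and 2 lower (Cdh5 and Emcn), and their sum was 145 to 209 CPM in WT and 132 to 219 CPM in KSR23. Of 10 epithelial markers 1 was called higher (Cdh1) and 0 lower, with a sum of 2765 to 8707 CPM in WT and 3906 to 8950 CPM in KSR23. Markers of other cells were summed as well. Of 7 tested genes of the exocrine pancreas 0 were called higher and 7 lower (6 by the quasi-likelihood test). The sum of the list was 99.7 to 210 CPM in WT and 5.93 to 15.9 CPM in KSR23. Most of it in WT was Ctrb1 (82.2 CPM in WT and 0.269 CPM in KSR23) and Cela1 (70.6 and 8.85 CPM, group means). The study describes digestive enzymes as also made by the jejunum and reports Ctrb1 lower there, so this sum need not track pancreas cells. Of 6 neutrophil markers 1 was called higher (Elane) and 1 lower (Retnlg), with a sum of 18.3 to 28.4 CPM in WT and 5.43 to 13.1 CPM in KSR23. Most of this sum in WT was Retnlg alone (15.0 CPM in WT and 2.18 CPM in KSR23, group means). The call of Elane rests on 0 counts in every WT library and 0 to 7 counts in KSR23, and the quasi-likelihood test did not keep it (adjusted p = 0.0838). S100a8 (3.35 and 3.57 CPM) and S100a9 (2.53 and 3.40 CPM) were not called. Neither sum overlapped between the groups. The part of any of these cells in the results on the 6 genes was not tested.

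Ratios within a library do not depend on how library totals are scaled. Per 1000 Lct counts there were 30.98, 18.8, 28.1, 24.9 and 32.7 Mgam counts in WT replicates 1 to 5. In KSR23 replicates 1 to 5 there were 137, 564, 267, 278 and 421. The Sis ratio was 2.89 to 5.33 in WT and 8.28 to 69.9 in KSR23, also without overlap. The Treh ratio overlapped, with 14.3 to 27.1 in WT and 3.39 to 206 in KSR23. For each of the 3 ratios KSR23 replicate 2, which had the least Lct, was the highest library and KSR23 replicate 1 the lowest of its group. Prdm1 reached 1.83 to 3.52 counts per 1000 Fcgrt counts in WT and 8.55 to 41.1 in KSR23. The ratio of Sis to Mgam overlapped between the groups, with 11.3 to 16.4 Sis counts per 100 Mgam counts in WT and 4.10 to 12.4 in KSR23.

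**Figure D2:**
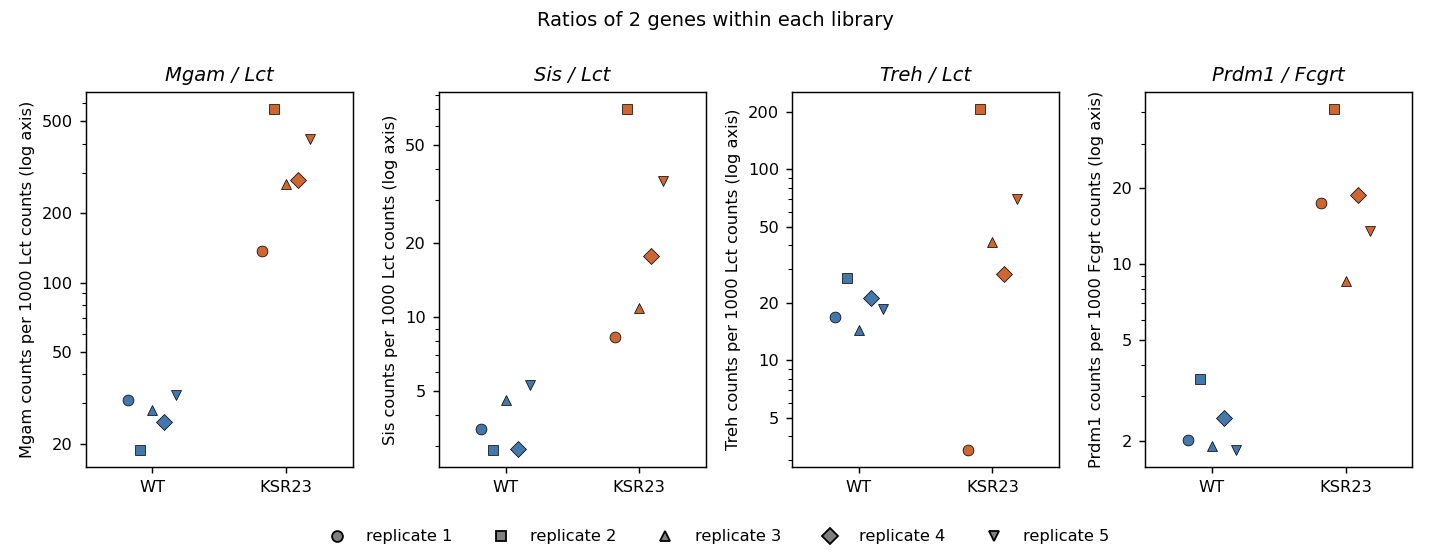
Counts of one gene per 1000 counts of another in the same library (log axis) for 5 WT and 5 KSR23 libraries; symbols mark replicate numbers. Mgam/Lct, Sis/Lct and Prdm1/Fcgrt separate the groups, whereas Treh/Lct ranges from 3.39 to 206 in KSR23 and spans the WT range.

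The order of the KSR23 libraries differed from gene to gene. Replicate 2 had the lowest Lct, Fcgrt and Prdm1, the highest Treh and the second highest Sis of the group. Replicate 1 had the lowest Sis, Treh and Mgam and the highest Prdm1. Replicate 3 had the highest Lct and Fcgrt. The coefficient of variation within KSR23 was 17.8% for Prdm1, 32.8% for Lct, 36.6% for Mgam, 55.5% for Sis, 56.4% for Fcgrt and 73.4% for Treh. In WT it was 12.0% to 38.7%, and Treh was again the most variable.

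The genes whose level was most like that of each of the 6 across the 10 libraries were found by Pearson's r of log2 CPM among 9737 genes with a mean of at least 5 CPM. These libraries share their groups, so a high r reflects the group difference as well, and r is given as a description. For Lct they were Tbcel (r = 0.978), Gm2061 (0.967) and Cubn (0.966), the last a receptor for protein uptake in suckling enterocytes. For Fcgrt they were Rtp4 (0.990), Sepp1 (0.989) and Cacnb4 (0.989). For Treh they were Tph1 (0.979), which makes serotonin in enteroendocrine cells, Cep95 (0.937) and the fructose transporter gene Slc2a5 (0.933). Mgam was most like Gm766 (0.995) and Cd38 (0.994). Sis was most like Eif3a (0.971), Gprc5a (0.971) and Pkm (0.970). Prdm1 was most like March8 (0.980), Igtp (0.976) and Slfn2 (0.975).

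Other genes known to be high in the suckling intestine moved in both directions. Of 13 tested genes of such a list, 3 were called lower (8.76% of all genes were), 1 higher (9.74% of all genes were) and 9 were not called. Their median log2 ratio was -0.42, where the median of all genes tested was 0.03. The NADPH oxidase gene Nox4 fell from 26.8 to 82.5 CPM across the WT libraries to 0.742 to 5.65 CPM across the KSR23 libraries (log2 ratio -4.00, adjusted p = 3.73e-11). Cubn fell from 50.2 ± 9.98 to 9.50 ± 5.94 CPM (SD, n = 5, log2 ratio -2.40, adjusted p = 0.000112, likelihood ratio test). For both genes every KSR23 library lay below every WT library. The lysosomal beta-galactosidase gene Glb1 rose (log2 ratio 0.92, adjusted p = 0.00275), a call lost with scaling to the epithelial markers. Dab2, an adaptor of the endocytic apparatus, had a log2 ratio of -0.05 (adjusted p = 0.939). Ass1, the citrulline-using enzyme, was listed at 0 to 3 counts per library and was not tested, and 32.6% of its stretches of 75 bases also occur in Gm5424. Of the 13 genes, 1 was called in replicates 1 to 3 alone (Nox4).

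Of 10 genes known to rise towards weaning, 5 were called higher (9.74% of all genes were), 2 lower (8.76% of all genes were) and 3 were not called, with a median log2 ratio of 0.66. Fut2, a fucosyltransferase of the epithelial surface, rose from 0.642 ± 0.278 to 74.2 ± 22.2 CPM (SD, n = 5, log2 ratio 6.84, adjusted p = 4.55e-47). Lyz1, a lysozyme of Paneth cells that shares 6.22% of its stretches with Lyz2, rose with a log2 ratio of 3.24 (adjusted p = 4.03e-19), Pigr, the transport receptor for IgA, with 2.66 (adjusted p = 2.98e-11) and Krt20, a keratin of mature villus cells, with 2.22 (adjusted p = 1.27e-07). Cyp2c65 was also higher (1.31, adjusted p = 0.0133), and 11.4% of its stretches occur in Cyp2c66. The steroid- and drug-oxidising Cyp3a11 fell from 4.54 ± 0.185 to 0.194 ± 0.239 CPM (SD, n = 5, log2 ratio -4.62, adjusted p = 7.23e-08). The ketohexokinase gene Khk, for the first step of fructose use, was lower as well (-1.13, adjusted p = 0.00564). Slc2a5 (0.00, adjusted p = 0.998) and Ada (0.01, adjusted p = 0.994), a gene of mature villi, were not called. With replicates 1 to 3 alone 4 genes were called higher (2.01% of all genes were) and 1 lower (1.35% of all genes were). Scaled to the epithelial markers 4 were called higher and 1 lower, where 428 and 1188 of 17632 genes were.

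**Figure D3:**
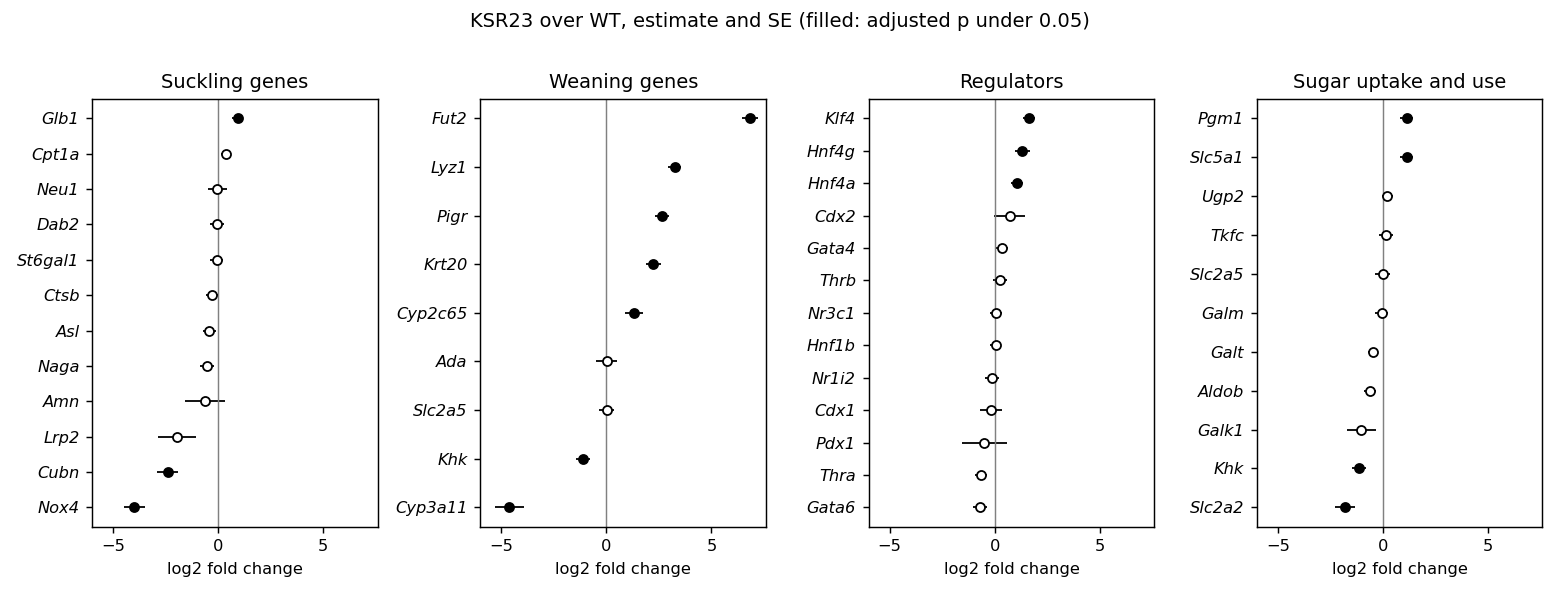
Log2 fold change of KSR23 over WT with its SE for genes of 4 lists; filled points passed an adjusted p of 0.05. Genes that rose and genes that fell stand in each panel except the regulators, where Klf4, Hnf4g and Hnf4a rose and no gene passed the test in the other direction (1 did with DESeq2 and with library totals alone).

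Among 14 regulators known for the switch or for disaccharidase promoters, 3 were called higher, 0 lower and 11 were not called, which is near the 18.5% called among all genes and is no result about the regulators as a list. Hnf4a rose from 163 ± 42.9 to 343 ± 82.4 CPM (SD, n = 5, log2 ratio 1.08, adjusted p = 0.00281). Its relative Hnf4g had a log2 ratio of 1.32 (adjusted p = 0.00323) and the epithelial differentiation factor Klf4 of 1.63 (adjusted p = 2.75e-07). The groups did not overlap for these 3 genes, and none of them was called in replicates 1 to 3 alone. Gata4 (0.35, adjusted p = 0.458) and Cdx2 (0.72, adjusted p = 0.566), activators of Lct and Sis, were not called. Nr3c1, the glucocorticoid receptor through which corticosteroids advance the switch, had a log2 ratio of 0.05 (SE 0.29, adjusted p = 0.94).

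The sugars that these enzymes release are taken up and used by the products of 12 listed genes, of which 3 were called higher (9.74% of all genes were), 2 lower (8.76% of all genes were) and 7 were not called. Slc5a1, the sodium-coupled carrier for glucose and galactose, rose from 904 ± 165 to 1995 ± 715 CPM (SD, n = 5, log2 ratio 1.14, adjusted p = 0.00316). Slc2a2, the carrier at the basolateral side, was lower (-1.81, adjusted p = 0.00212). Among enzymes that use galactose, Galm (-0.06, adjusted p = 0.924), Galk1 (-1.02, adjusted p = 0.33) and Galt (-0.47, adjusted p = 0.178) were not called. The groups did not overlap for Galt, which shares 20.4% of its stretches with other genes. Pgm1 was higher (1.15, adjusted p = 0.00362), although 11.4% of its stretches also occur in Itgb3bp. With scaling to the epithelial markers 0 of the 12 genes were called higher and 1 lower. The median log2 ratio of the 12 genes was -0.03, and 0 of them were called in replicates 1 to 3 alone.

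Relatives of the member enzymes were compared last. Of 7 genes of the glycoside hydrolase families of lactase and of maltase-glucoamylase, 1 was called higher, 2 lower and 4 were not called, where 18.5% of all genes were called. Ganab, the glucosidase of the endoplasmic reticulum, was higher (log2 ratio 1.04, adjusted p = 0.0129), a call lost with scaling to the epithelial markers. The lysosomal alpha-glucosidase gene Gaa had a log2 ratio of -0.04 (adjusted p = 0.951). Klb, the coreceptor for hormonal fibroblast growth factors, was lower (-1.98, adjusted p = 0.00278). Lctl had 2 to 8 counts in WT and 0 to 3 counts in KSR23 libraries, so its call (adjusted p = 0.0228, quasi-likelihood adjusted p = 0.104) rests on values near the floor. It was the only one of the 7 called in replicates 1 to 3 alone.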

How the data were processed

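RNA from jejunum was primed with oligo-dT, amplified with a low-input kit and read from one end over 75 bases, per the labels. The authors mapped the reads to mm10 with TopHat 2.1.0 and made counts per gene with htseq-count, per the methods and the processing notes, and the deposited counts were whole numbers without normalization. Whether counting used the strand is not given in the sources used here. Non-unique alignments, of which a library had 8.62 to 17.1 M, were counted for no gene.

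A gene entered the tests (17632 did) if any library held at least 5 counts of it, and library totals were 25.5 to 60.9 M. Totals were scaled by trimmed mean of M-values in edgeR 4.0.16 (R 4.3.3), and the likelihood ratio test that the study names was applied with all 10 libraries and the group as the only term. P-values were adjusted over all genes by the Benjamini-Hochberg method, and an adjusted p under 0.05 is called. Fold changes are KSR23 over WT. Alternatives were the quasi-likelihood F test, DESeq2 1.42.0, other scalings and filters, the replicate number as a block, leaving out each library, and replicates 1 to 3 alone. Code was tested on simulated data. The members and lists were chosen with earlier results of these data known, so no list was tested as a set. Log2 ratios are on the fitted scale of edgeR. Named genes are the 6 members, the genes of the lists and the 3 genes most like each member. A few listed genes enter the counts but are not reported here. Of the listed genes, Ly6g was not found by symbol, and 4 were found by an older symbol. Exon lengths and positions are from GENCODE M21 (mm10), in which Lct, Sis, Mgam, Prdm1 and Fcgrt shared 0% and Treh 0.274% of their stretches of 75 bases with another gene. Treh shares 2 exonic bases with Phldb1. No molecular identifiers were used, so floors cover counting error only, and p-values measure the spread between these libraries. The study calls them biological replicates.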

Additional observations from a re-analysis of the deposited data

Results flagged for a closer look

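A library set off from the remaining 4 libraries by a wide gap (Dixon's criterion) was sought in 121 groups of values of the 6 genes and the listed genes. There were 8 such values, which fell in 5 libraries, and chance flags about 1 in 20 groups. WT replicate 3 was low for Lct (log2 CPM 8.70, next library 9.24) and Dab2 (8.91, next 9.15), low for Cyp3a11 (2.096, next 2.21) and high for Gata4 (4.68, next 3.99). KSR23 replicate 2 was low for Prdm1 (5.70, next 6.24). WT replicate 2 was high for Ugp2 (8.15, next 8.01) and WT replicate 1 low for Pgm1 (5.52, next 5.74). KSR23 replicate 1 had 13 counts of Kl (log2 CPM -2.06), where the other KSR23 libraries had 0.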

How the results depend on the processing

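None of the 6 genes changed sign under any of the 20 alternatives, among them 10 that left out 1 library, and Treh was called under none. The number of genes called was 2370 to 3802 when 1 library was left out and 3262 in the main comparison. It was 1616 (428 higher and 1188 lower) when totals were scaled to the epithelial markers, which moved the median of all genes by -0.38, 579 in replicates 1 to 3 alone and 140 there by the quasi-likelihood test, an alternative chosen after seeing the data. Scaled to the epithelial markers, the log2 ratios of Lct (-1.16, SE 0.54), Sis (1.28, SE 0.54) and Prdm1 (0.75, SE 0.45) were no longer called. In the main comparison the SEs of these genes were smaller, at 0.30, 0.42 and 0.26. The log2 ratio of Lct was further from zero with this scaling than in the main comparison (-0.81), while those of Sis and Prdm1 were nearer to it. The cause was not tested. In replicates 1 to 3 alone, with fewer samples, those of Lct (-0.71), Sis (1.78), Prdm1 (1.08) and Fcgrt (-1.51) were not called by either test, nor was Mgam (2.69) by the quasi-likelihood test. Lct was not called by the quasi-likelihood test on all libraries either (-0.81). Leaving out 1 library gave -0.96 to -0.59 for Lct, with the call lost in 8 of 10 fits, and changed no call of the other 5 genes. The replicate numbers do not pair the libraries, since correlations of same-numbered deviations ran from -0.73 to 0.59 and 1 of 5 WT libraries matched its own number best. With the replicate block Lct was not called (-0.86, adjusted p = 0.136), and no call of the other 5 genes changed.

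Called genes in the lists changed as follows. Scaled to epithelial markers there were 2 suckling genes (0 higher, 2 lower), 5 weaning genes (4 higher, 1 lower) and 1 regulator (1 higher). There were also 1 sugar gene (0 higher, 1 lower) and 2 relatives of the enzymes (0 higher, 2 lower). Glb1, Slc5a1, Pgm1 and Ganab were thus no longer called. In replicates 1 to 3 alone there were 1 suckling gene, 0 regulators, 0 sugar genes and 1 relative of the enzymes, and by the quasi-likelihood test 0, 0, 0 and 0, with 2 weaning genes. Depth limits, among others, Lctl (0 to 8 counts), Kl (0 to 13 counts), Elane (0 to 7 counts) and Slc10a2 (0 to 42 counts).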
